A study of Arabidopsis thaliana with 24 samples.

Results

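The 10 core genes of the plant circadian clock were followed in germinating Arabidopsis thaliana seeds. They were picked by locus number from the 23826 genes of the deposited table, and all 10 were present. They are CCA1 (AT2G46830), LHY (AT1G01060), PRR9 (AT2G46790), PRR7 (AT5G02810), PRR5 (AT5G24470), TOC1 (AT5G61380), GI (AT1G22770), ELF3 (AT2G25930), ELF4 (AT2G40080) and LUX (AT3G46640, named PCL1 in the reference). RNA was sequenced from seeds of Col (wild type) and of the genotype ref6c in the Col ecotype at 0, 6, 24 and 48 h of imbibition, with 3 libraries in each of the 8 groups. The name ref6c refers to REF6, a demethylase that takes the repressive mark H3K27me3 off histones, and the nature of the allele is not given in the sources used here. The same growth note stands on every sample. It describes after-ripened seeds germinating in long days at about room temperature, and it names a ref6-1;REF6-HA line that no sample label repeats. The labels give neither the clock hour nor the light phase of any collection, so the time since imbibition and the time of day cannot be told apart. The labels do not say whether replicates are separate seed batches, so p-values measure the spread between libraries, which may be technical.

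The plant clock is a ring of transcription factors that repress each other in turn over the day. CCA1 and LHY are MYB factors that peak around dawn and repress evening genes through a promoter sequence called the evening element. The pseudo-response regulators PRR9, PRR7, PRR5 and TOC1 peak in that order from morning to evening and repress CCA1 and LHY. ELF3, ELF4 and LUX form the evening complex, which represses PRR9, PRR7 and other genes at night, and GI is an evening protein that stabilises the F-box protein ZTL.

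The 300 bases before each annotated start were searched for short sequences through which clock proteins are known to act, and for the G-box. Windows of 6 of the genes are shown, and those of CCA1 and LHY held only a G-box. They were read from the RefSeq assembly TAIR10.1, 5′ to 3′ on the strand of the gene. The windows are chr2:19245291-19245590 (plus strand) for CCA1, chr1:37872-38171 (minus strand) for LHY, chr2:19232307-19232606 (plus strand) for PRR9, chr5:8358547-8358846 (minus strand) for PRR5, chr5:24674663-24674962 (plus strand) for TOC1 and chr3:17182742-17183041 (plus strand) for LUX. No other annotated gene lies in them, and each ends at the base next to its gene. The other 4 genes span chr5:637681-642030 (PRR7), chr1:8061751-8067790 (GI), chr2:11058944-11063324 (ELF3) and chr2:16734294-16734953 (ELF4) on the same assembly. Capitals mark a G-box (CACGTG), an evening element (AAAATATCT), a CCA1-binding site (AAAAATCT or AACAATCT) or a LUX-binding site (GATACG or GATTCG), on either strand.
CCA1: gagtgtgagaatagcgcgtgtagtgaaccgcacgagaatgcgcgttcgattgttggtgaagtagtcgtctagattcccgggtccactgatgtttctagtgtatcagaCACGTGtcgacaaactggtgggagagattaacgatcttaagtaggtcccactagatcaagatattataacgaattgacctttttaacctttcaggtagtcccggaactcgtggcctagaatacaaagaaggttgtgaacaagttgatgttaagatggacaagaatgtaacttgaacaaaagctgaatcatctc
LHY: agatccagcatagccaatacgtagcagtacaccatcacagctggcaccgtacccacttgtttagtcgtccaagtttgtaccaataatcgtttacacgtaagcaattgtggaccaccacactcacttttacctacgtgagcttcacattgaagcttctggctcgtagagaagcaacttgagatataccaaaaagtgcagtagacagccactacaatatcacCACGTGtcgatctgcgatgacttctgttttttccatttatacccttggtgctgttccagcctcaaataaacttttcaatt
PRR9: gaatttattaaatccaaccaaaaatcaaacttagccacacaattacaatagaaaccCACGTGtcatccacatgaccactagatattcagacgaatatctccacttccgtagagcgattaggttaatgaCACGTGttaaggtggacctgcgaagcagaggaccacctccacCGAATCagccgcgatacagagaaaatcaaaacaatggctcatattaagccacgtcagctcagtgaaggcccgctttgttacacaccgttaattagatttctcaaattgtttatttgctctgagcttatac
PRR5: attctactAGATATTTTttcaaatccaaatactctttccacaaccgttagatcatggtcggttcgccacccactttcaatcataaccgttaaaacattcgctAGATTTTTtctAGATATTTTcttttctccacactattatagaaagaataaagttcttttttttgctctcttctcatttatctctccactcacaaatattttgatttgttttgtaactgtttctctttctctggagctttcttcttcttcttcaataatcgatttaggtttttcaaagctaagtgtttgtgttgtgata
TOC1: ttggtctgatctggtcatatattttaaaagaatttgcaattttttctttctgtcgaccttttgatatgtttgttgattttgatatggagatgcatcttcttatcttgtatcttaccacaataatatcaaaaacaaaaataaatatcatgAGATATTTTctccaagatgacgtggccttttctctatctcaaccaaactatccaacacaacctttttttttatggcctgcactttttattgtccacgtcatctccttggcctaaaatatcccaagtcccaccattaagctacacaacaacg
LUX: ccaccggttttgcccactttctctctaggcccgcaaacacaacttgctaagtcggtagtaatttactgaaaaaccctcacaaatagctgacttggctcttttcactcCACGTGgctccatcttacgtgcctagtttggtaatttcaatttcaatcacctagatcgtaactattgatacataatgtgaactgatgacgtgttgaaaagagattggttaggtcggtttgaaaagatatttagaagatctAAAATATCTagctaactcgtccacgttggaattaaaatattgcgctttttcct

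The G-box, the core of many light-responsive promoters, lay in the windows of CCA1, LHY, PRR9, PRR7 and LUX, which is 5 of the 10 genes against 7.69% of 23640 windows of the same length. PRR9 held it at 2 places, from bases -244 and -172 before its start. The evening element lay in 3 of the 10, PRR5, TOC1 and LUX, against 2.87% of all windows, and PRR5 held 2 copies. A CCA1-binding site lay in 2 of the 10, PRR5 and ELF3, against 9.85%. A LUX-binding site lay in 3 of the 10, PRR9, ELF3 and ELF4, against 14.6%. The 8-letter element bound by the zinc fingers of REF6 (CTCTGCTC, CTCTGCTT, CTCTGTTC or CTCTGTTT) lay in 1 of the 10 windows, that of PRR9, against 6.7%. Over the whole gene span, LHY held 5 such elements (1.11 per kb), ELF3 held 4 (0.91 per kb) and TOC1 held 3 (0.84 per kb). PRR9 (0.78 per kb), LUX (0.51) and PRR7 (0.46) each held 2, CCA1 (0.3) and GI (0.17) each held 1, and PRR5 and ELF4 held none. The median over all genes was 0.33 per kb, so CCA1, GI, PRR5 and ELF4 lay below it. These matches are letters found by search and show neither binding nor its absence.

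REF6 itself (AT3G48430) was lower in ref6c at every time. Its level was 35.8 ± 3.67 TPM in Col and 14.4 ± 0.892 in ref6c at 6 h (mean ± SD, n = 3), and 14.8 ± 1.05 against 8.35 ± 0.701 at 48 h, with no overlap between genotypes at any of the 4 times. TPM, the authors' unit, is a gene's share of its library after division by gene length, scaled to a column total of 1000000. The length used here was the gene span with introns, so levels were compared between samples and not between genes. Depth lay between 16625456 and 19250051 reads per library. In this bulk RNA, fewer cells of a type and less RNA per cell cannot be told apart. Differences below are ± SE on log2(TPM + 1), a scale that shrinks changes at low TPM, and a gene was called at a limma adjusted p under 0.05 over 18481 genes tested. All 10 clock genes passed the filter on low values. Of the marker lists, the 6 seed reserve genes, none of them at 0, summed to between 70580 and 72300 TPM in dry Col seeds and between 66170 and 70210 in dry ref6c seeds, and at 6 h to between 24030 and 27960 in Col and 28550 and 31670 in ref6c. They summed to between 4528 and 7924 TPM in Col and 15290 and 29610 in ref6c at 24 h, and to between 4004 and 4924 in Col and 20250 and 22060 in ref6c at 48 h. The 5 green seedling genes, none of them at 0, summed to between 2385 and 2490 TPM in Col and 1861 and 2223 in ref6c at 24 h, and to between 9090 and 10910 TPM in Col and to between 4415 and 5019 in ref6c at 48 h. The 3 pollen markers summed to at most 8.58 TPM and the 3 seed coat markers to at most 0.13, with all 3 seed coat markers at 0 in 3 of the 8 groups. Replicate 1 of ref6c at 0 h and replicate 2 of ref6c at 24 h stood apart from their groups, the latter with 29610 TPM of seed reserve RNA against 15290 and 16010, and calls that change without them are given both ways.

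**Figure D1:**
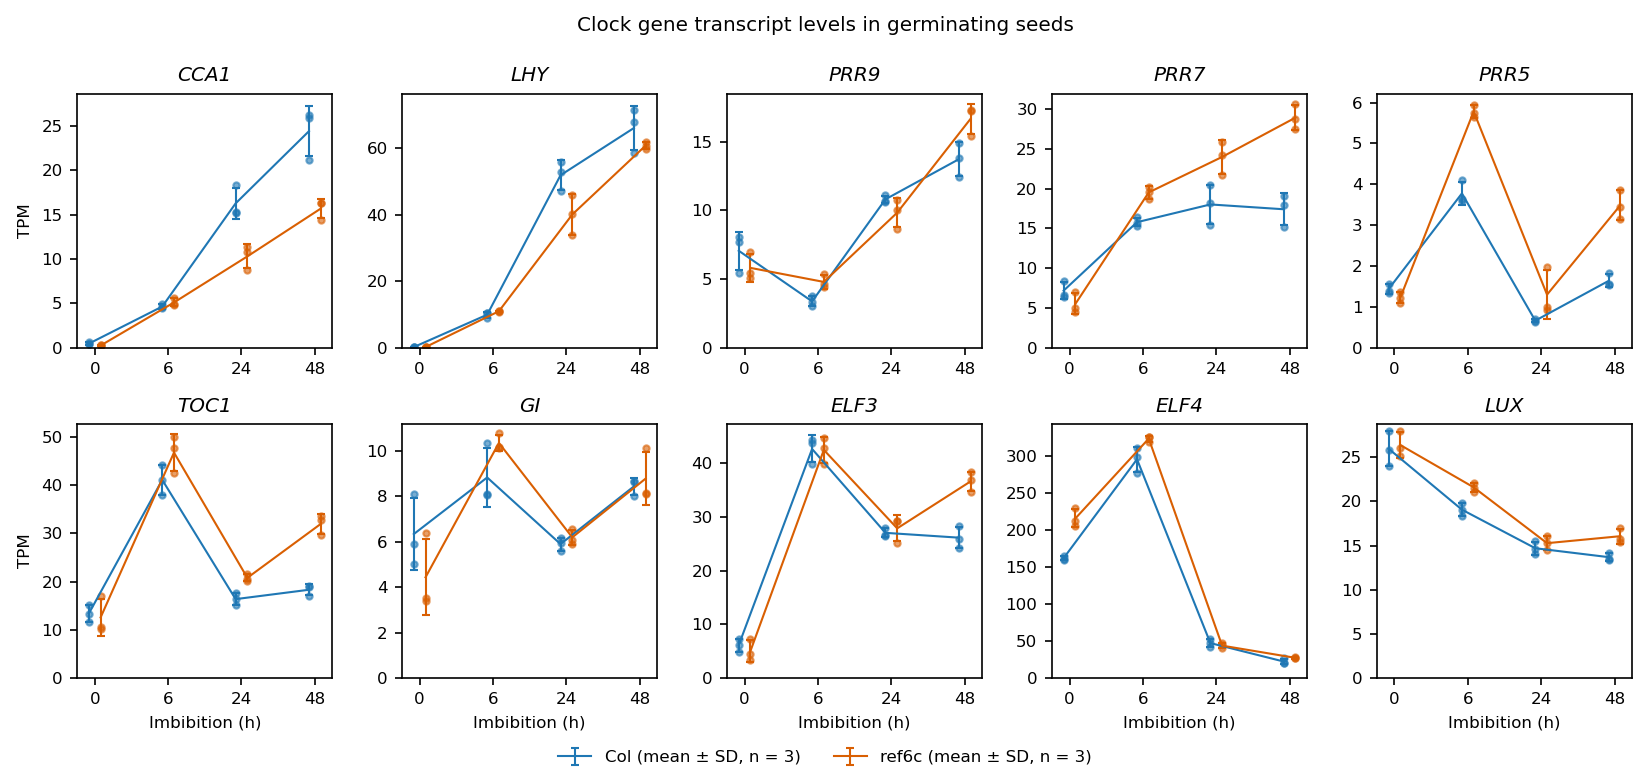
Level of each clock gene in TPM (vertical axes, each from 0) against hours of imbibition (horizontal axes, times evenly spaced); points are libraries, lines join the means, bars are ± SD with n = 3, blue is Col and orange ref6c. CCA1 ended at 24.4 TPM in Col and 15.7 in ref6c, while PRR7, PRR5, TOC1 and ELF3 ended higher in ref6c.

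At 48 h the RNA levels of the clock genes in ref6c differed from Col in both directions. CCA1 was lower, while PRR5, TOC1, PRR7, ELF3, ELF4 and LUX were higher, so that 6 of the 10 genes were called higher and 1 lower. Among all genes, 22.1% were called higher and 34.1% lower in that comparison. The median difference of the 10 genes was 0.28 against -0.05 over all genes tested. LHY, PRR9 and GI were not called, and the calls of ELF4 and LUX were lost under alternatives given below.

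CCA1, the dawn MYB factor, was lower in ref6c at both late times. In Col its 3 libraries had 18.3, 15.2 and 15.3 TPM at 24 h, and those of ref6c had 10.8, 8.75 and 11.3. At 48 h they had 26.2, 21.1 and 25.9 TPM in Col and 16.3, 16.4 and 14.4 in ref6c. The genotypes did not overlap at either time, and the ref6c libraries at 48 h overlapped those of Col at 24 h. The mean in ref6c was 63.2% of that in Col at 24 h (difference -0.62 ± 0.11, adjusted p = 0.00012) and 64.2% at 48 h (-0.60 ± 0.11, adjusted p = 6.2e-05). Both calls held under every alternative run, the omission of each library included.

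LHY, the partner and close relative of CCA1, was called lower in ref6c at 24 h but not at 48 h. Its libraries had 47.0, 52.9 and 55.9 TPM in Col at 24 h and 40.3, 33.9 and 46.0 in ref6c. At 48 h they had 68.0, 58.8 and 71.7 TPM in Col and 62.0, 59.8 and 60.8 in ref6c. All 3 libraries of ref6c lay below those of Col at 24 h, and the genotypes overlapped at 48 h. The difference was -0.37 ± 0.10 at 24 h (adjusted p = 0.0064) and -0.11 ± 0.10 at 48 h (adjusted p = 0.36). Without replicate 2 of ref6c at 24 h it was -0.26 with an adjusted p of 0.068. The adjusted p at 24 h was 0.16 with a pseudocount of 0.1 and 0.076 when only the groups compared were fitted.

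The ratio of CCA1 to LHY reads inside a library does not depend on how libraries are scaled. Its log2 was -1.88 ± 0.06 (SD, n = 3) in Col at 48 h and -2.40 ± 0.11 in ref6c, with 3 values from -1.91 to -1.81 in Col and from -2.52 to -2.31 in ref6c. At 24 h the values ran from -2.31 to -1.80 in Col and from -2.46 to -2.34 in ref6c. The genotypes were separate at both times, narrowly at 24 h. In dry seeds the ratio was scattered, from 0.40 to 1.58 in Col and from -0.21 to 1.22 in ref6c, since LHY had as few as 4 reads there. No test was run on these ratios.

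Of the repressors of CCA1 and LHY, PRR7 and PRR5 were called higher in ref6c at 24 and 48 h, and TOC1 at 48 h. PRR7 had 15.5, 20.4 and 18.2 TPM in Col at 24 h and 21.8, 24.3 and 25.9 in ref6c. At 48 h it had 15.2, 18.0 and 19.1 TPM in Col and 28.8, 27.5 and 30.6 in ref6c. The genotypes did not overlap at either time, and the ref6c libraries at 48 h lay above every library of any other group. The difference was 0.40 ± 0.12 at 24 h (adjusted p = 0.015) and 0.71 ± 0.12 at 48 h (adjusted p = 4e-05), a 1.66-fold higher mean. The call at 24 h was lost without replicate 1 of Col (0.30, adjusted p = 0.10) or replicate 3 of ref6c (0.34, adjusted p = 0.065), and when only the groups compared were fitted (adjusted p = 0.054).

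PRR5, a regulator of the afternoon, was higher in ref6c at 6, 24 and 48 h. It had 0.702, 0.634 and 0.640 TPM in Col at 24 h, from 13 to 15 reads, and 0.996, 1.98 and 0.915 in ref6c. At 48 h it had 1.82, 1.55 and 1.54 TPM in Col and 3.87, 3.43 and 3.16 in ref6c. No library of one genotype reached the other at either time, and the value of 1.98 came from replicate 2, the library that stood apart. The difference was 0.44 ± 0.12 at 24 h (adjusted p = 0.0062) and 0.77 ± 0.12 at 48 h (adjusted p = 8.9e-06), where the mean was 2.13-fold higher. Without that library the difference at 24 h was 0.24 with an adjusted p of 0.069, and the call was also lost when only the groups compared were fitted (adjusted p = 0.12).

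TOC1, the evening repressor whose promoter carries the evening element shown above, had 15.1, 16.4 and 17.5 TPM in Col at 24 h and 20.2, 20.5 and 21.6 in ref6c. At 48 h it had 17.0, 19.0 and 18.9 TPM in Col and 33.6, 29.6 and 32.7 in ref6c. The genotypes were separate at both times. The mean at 48 h was 1.75-fold higher in ref6c (0.77 ± 0.13, adjusted p = 2.2e-05). At 24 h the difference of 0.33 ± 0.13 missed the threshold (adjusted p = 0.052), although it passed with median-of-ratios scaling (0.35, adjusted p = 0.0038), with voom on recovered reads (0.38, adjusted p = 0.016), with only the groups compared (adjusted p = 0.022) and with a filter at 5 TPM (adjusted p = 0.048). The log2 ratio of TOC1 to CCA1 reads inside a library at 48 h was -0.30 ± 0.24 (SD, n = 3) in Col and 1.14 ± 0.16 in ref6c, and at 24 h 0.12 ± 0.25 and 1.13 ± 0.18. At 6 h it was 3.26 ± 0.04 and 3.31 ± 0.16, with values that overlapped.

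**Figure D2:**
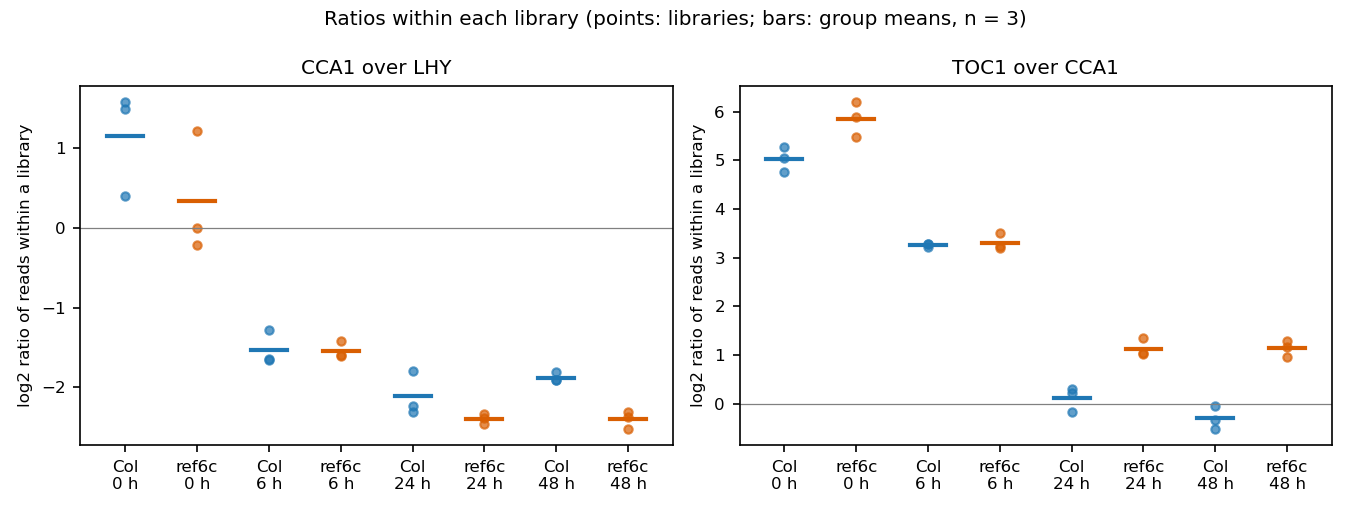
Ratio of reads of CCA1 to LHY (left) and of TOC1 to CCA1 (right) within each library, on a log2 scale (vertical axes), by group (horizontal axes); points are libraries, bars group means with n = 3, blue is Col and orange ref6c. At 24 and 48 h every ref6c library lies below Col for CCA1 over LHY and above Col for TOC1 over CCA1.

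PRR9, the earliest of the pseudo-response regulators, was called higher in ref6c at 6 h. It had 3.74, 3.35 and 3.002 TPM in Col at 6 h and 4.38, 4.63 and 5.33 in ref6c, with no overlap. The difference was 0.41 ± 0.12 (adjusted p = 0.025), and the call was lost without any of 4 of the 6 libraries, with values from 0.34 to 0.42 and adjusted p-values from 0.053 to 0.13, and with voom (adjusted p = 0.05 after rounding). At 48 h it had 12.5, 13.8 and 14.9 TPM in Col and 17.3, 15.4 and 17.3 in ref6c. The genotypes were again separate, and the difference of 0.26 ± 0.12 was not called (adjusted p = 0.072), although it passed with only the groups compared (adjusted p = 0.029) and with voom (0.29, adjusted p = 0.030). PRR5 at 6 h had 4.11, 3.58 and 3.64 TPM in Col and 5.76, 5.64 and 5.95 in ref6c (0.51 ± 0.12, adjusted p = 0.0043). PRR9 and PRR5 were the 2 of the 10 genes called at 6 h, both higher, against 5.89% of all genes called higher and 10.1% lower.

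All 3 members of the evening complex were called higher in ref6c at 48 h. ELF3, its scaffold, had 25.8, 24.3 and 28.3 TPM in Col at 48 h and 34.7, 36.8 and 38.3 in ref6c. The groups did not overlap, and the mean was 1.40-fold higher in ref6c (0.47 ± 0.15, adjusted p = 0.01). LUX, the DNA-binding subunit, had 13.5, 14.2 and 13.4 TPM in Col at 48 h and 15.4, 17.0 and 15.8 in ref6c. Its difference was 0.22 ± 0.07 (adjusted p = 0.013), and 0.18 with an adjusted p of 0.069 without replicate 2 of ref6c. LUX shares 1507 bases with AT3G46650 on the other strand, and ELF3 shares 183 bases with an antisense RNA and 24 with AT2G25940. The strand setting of the counting is not given in the sources used here, so the LUX and ELF3 levels are uncertain to that extent.

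ELF4, the small partner of ELF3, was higher in ref6c at the first and the last time. In dry seeds it had 161, 159 and 166 TPM in Col and 206, 229 and 212 in ref6c, without overlap (0.41 ± 0.09, adjusted p = 0.0044). At 48 h it had 19.7, 26.2 and 20.4 TPM in Col and 26.8, 26.3 and 28.2 in ref6c. Replicate 2 of Col there lay just below the lowest ref6c library. The difference of 0.29 ± 0.09 (adjusted p = 0.01) was lost with median-of-ratios scaling (0.26, adjusted p = 0.086), with voom on recovered reads (0.31, adjusted p = 0.067), without replicate 1 of Col (0.22, adjusted p = 0.080) and without its replicate 3 (0.24, adjusted p = 0.059). GI had 8.01, 8.62 and 8.71 TPM in Col at 48 h and 8.09, 8.16 and 10.12 in ref6c, which overlap (0.05 ± 0.16, adjusted p = 0.82).

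ELF4 was the only 1 of the 10 called in dry seeds, where 2.07% of all genes were called higher and 10.6% lower in ref6c. Without replicate 1 of ref6c, the library that stood apart, 6 of the 10 were called, while the shares of all genes became 3.28% higher and 29.5% lower. ELF4 was then joined by 5 that were lower, PRR9 (-0.36), PRR7 (-0.50), TOC1 (-0.33), GI (-0.69) and ELF3 (-0.54). With median-of-ratios scaling 2 of the 10 were higher and 1 lower in dry seeds, and among all genes the share of calls that were higher went from 16.3% to 55.9%. The lower gene was CCA1, which had 15 to 25 reads in Col and 6 to 12 in ref6c and was not called as reported (-0.23 ± 0.11, adjusted p = 0.18). With that scaling it was -0.36 (adjusted p = 0.035), and with a pseudocount of 0.1 it was -0.73 (adjusted p = 0.0064).

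At 24 h 2 of the 10 were called higher, PRR7 and PRR5, and 2 lower, CCA1 and LHY, against 12.0% of all genes higher and 22.2% lower. Without replicate 2 of ref6c at 24 h the calls were 1 higher and 1 lower, PRR7 and CCA1, against 9.11% of all genes higher and 15.9% lower. The differences at 48 h of CCA1, PRR7, PRR5, TOC1 and ELF3 stayed past the threshold in the same direction under every alternative. The seed reserve and green seedling sums given above separated the genotypes at 24 and 48 h, the seed reserve sum also did at 0 and 6 h, and the green seedling sum at 0 h (84.5 to 89.1 TPM in Col and 91.6 to 104.3 in ref6c). Their part in these differences was not tested.

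**Figure D3:**
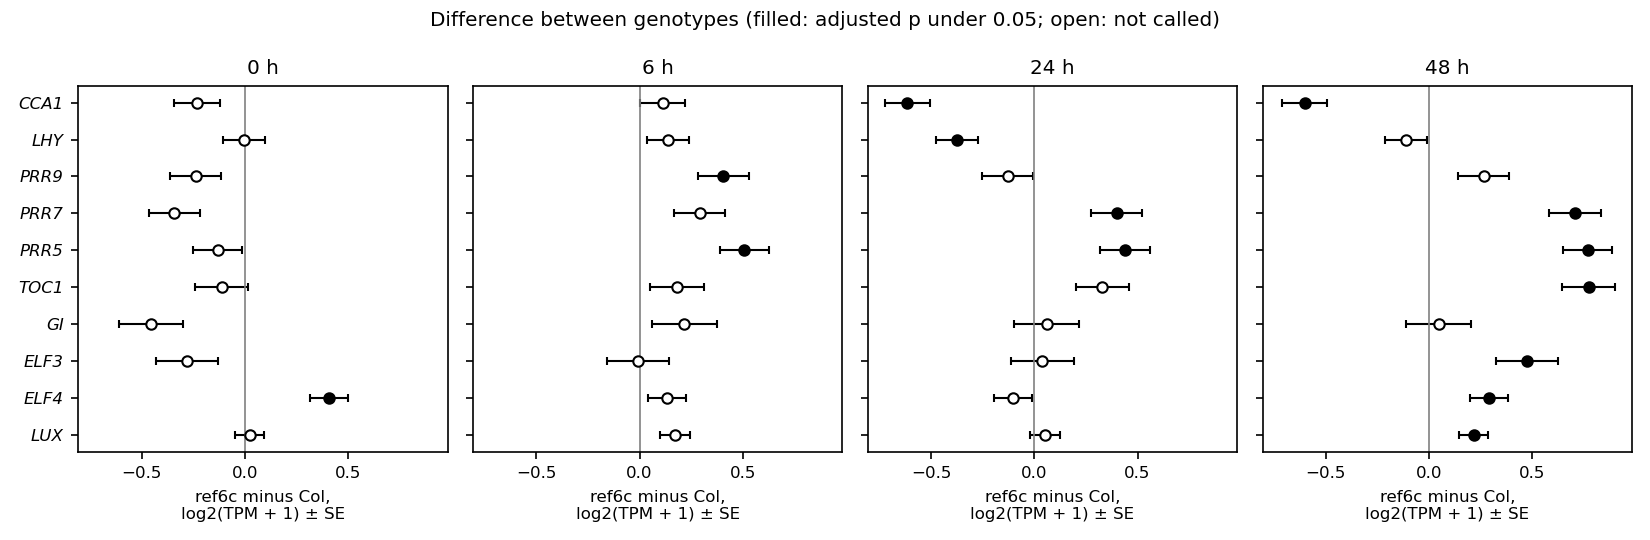
Difference ref6c minus Col in log2(TPM + 1) ± SE (horizontal axes) for each clock gene (vertical axis) at 0, 6, 24 and 48 h; filled points passed an adjusted p of 0.05 and open points did not. CCA1 lies at -0.62 and -0.60 at 24 and 48 h, and PRR7, PRR5 and TOC1 lie between 0.71 and 0.77 at 48 h.

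The course of each gene in the wild type was read over 3 steps of imbibition. The first step changed the whole library. Between 0 and 6 h the median over all genes rose by 1.23 in Col and by 1.29 in ref6c on log2(TPM + 1), as the seed reserve sum fell to between 24030 and 27960 TPM in Col. In Col 8 of the 10 clock genes rose and 2 fell, against 75.0% and 9.70% of all genes. In ref6c 8 rose and 1 fell, against 76.0% and 8.47%. With median-of-ratios scaling, which removes that common rise, 3 of the 10 rose and 7 fell in Col, and among all genes the share of calls that were rises went from 88.5% to 52.1%. In ref6c the split under that scaling was 3 up and 4 down, and the share went from 90.0% to 51.0%.

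LHY, ELF3 and CCA1 rose between 0 and 6 h under both scalings. LHY went from 0.089, 0.141 and 0.203 TPM to 10.3, 10.5 and 8.85 in Col, from at most 12 reads to at least 346 (3.25 ± 0.10, adjusted p = 6.3e-19). CCA1 went from 0.362, 0.598 and 0.366 TPM to 4.41, 4.55 and 4.92 (1.97 ± 0.11, adjusted p = 3.8e-14). ELF3 went from 7.25, 6.15 and 4.88 TPM to 43.8, 39.8 and 44.4 (2.63 ± 0.15, adjusted p = 6.1e-14). These rises exceeded the all-gene median of 1.23. PRR9 and LUX fell in TPM and fell under the other scaling too, PRR9 by 0.87 ± 0.12 (adjusted p = 6.1e-07) and LUX by 0.43 ± 0.07 (adjusted p = 6.8e-06). PRR7, PRR5, TOC1, GI and ELF4 rose in TPM by between 0.44 and 1.56 and fell once the common rise was removed, so their direction rests on the scaling.

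Between 6 and 24 h the morning and evening genes of Col went apart. The dawn genes LHY (2.28 ± 0.10, adjusted p = 3.3e-15) and CCA1 (1.61 ± 0.11, adjusted p = 6.2e-12) and the morning regulator PRR9 (1.44 ± 0.12, adjusted p = 3.7e-10) rose. ELF4 fell from 311, 299 and 278 TPM to 52.7, 47.3 and 41.2, to 15.9% of its 6 h mean (-2.63 ± 0.09, adjusted p = 4.9e-17). PRR5 fell by 1.52 ± 0.12 (adjusted p = 8.3e-11), TOC1 by 1.28 ± 0.13 (adjusted p = 6.1e-09), ELF3 by 0.64 ± 0.15, GI by 0.50 ± 0.16 and LUX by 0.35 ± 0.07. PRR7 was not called (0.17 ± 0.12, adjusted p = 0.22). In all 3 rose and 6 fell, against 38.0% and 35.2% of all genes. In ref6c 4 rose and 6 fell, against 35.0% and 32.6%. The fourth rise was that of PRR7 (0.28 ± 0.12, adjusted p = 0.049), a call lost under several alternatives, among them without replicate 2 of ref6c at 24 h (0.27, adjusted p = 0.099).

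The interval from 24 to 48 h is the only step of a whole day. In Col 5 of the 10 genes rose over it and 1 fell, against 35.5% and 28.3% of all genes, and in ref6c 7 rose and 1 fell, against 30.2% and 24.5%. PRR5 rose the most in both genotypes, by 0.67 ± 0.12 in Col (adjusted p = 4.1e-05) and 0.99 ± 0.12 in ref6c (adjusted p = 3.6e-07). CCA1, LHY, PRR9 and GI also rose in both. Of these, LHY in Col was not called with a pseudocount of 0.1 (adjusted p = 0.13), PRR9 in Col without any of 4 libraries (adjusted p from 0.061 to 0.12) and GI in ref6c without any of 3 (adjusted p from 0.052 to 0.11). TOC1 rose in ref6c (0.60 ± 0.13, adjusted p = 0.00047), and its value in Col was 0.15 ± 0.13 (adjusted p = 0.31). With median-of-ratios scaling the rise of TOC1 in Col was called too (0.21, adjusted p = 0.04). ELF3 passed the test in ref6c (0.38 ± 0.15, adjusted p = 0.035), and its value in Col was -0.05 ± 0.15 (adjusted p = 0.79). The ELF3 call was lost without replicate 2 of ref6c at 24 h (0.31, adjusted p = 0.13), without replicate 2 or 3 of ref6c at 48 h (adjusted p = 0.073 and 0.097), with a pseudocount of 0.1 (adjusted p = 0.066) and with no filter (adjusted p = 0.053). ELF4 was the gene that fell, by 1.06 ± 0.09 in Col (adjusted p = 7.6e-10) and by 0.67 ± 0.09 in ref6c (adjusted p = 2.6e-06). For TOC1 and ELF3 the difference between the genotypes over this step did not pass the test (0.44 ± 0.18, adjusted p = 0.09, and 0.43 ± 0.21, adjusted p = 0.16). Both passed with only the groups compared (adjusted p = 0.0083 and 0.01), and TOC1 also with median-of-ratios scaling (0.39, adjusted p = 0.027).

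**Figure D4:**
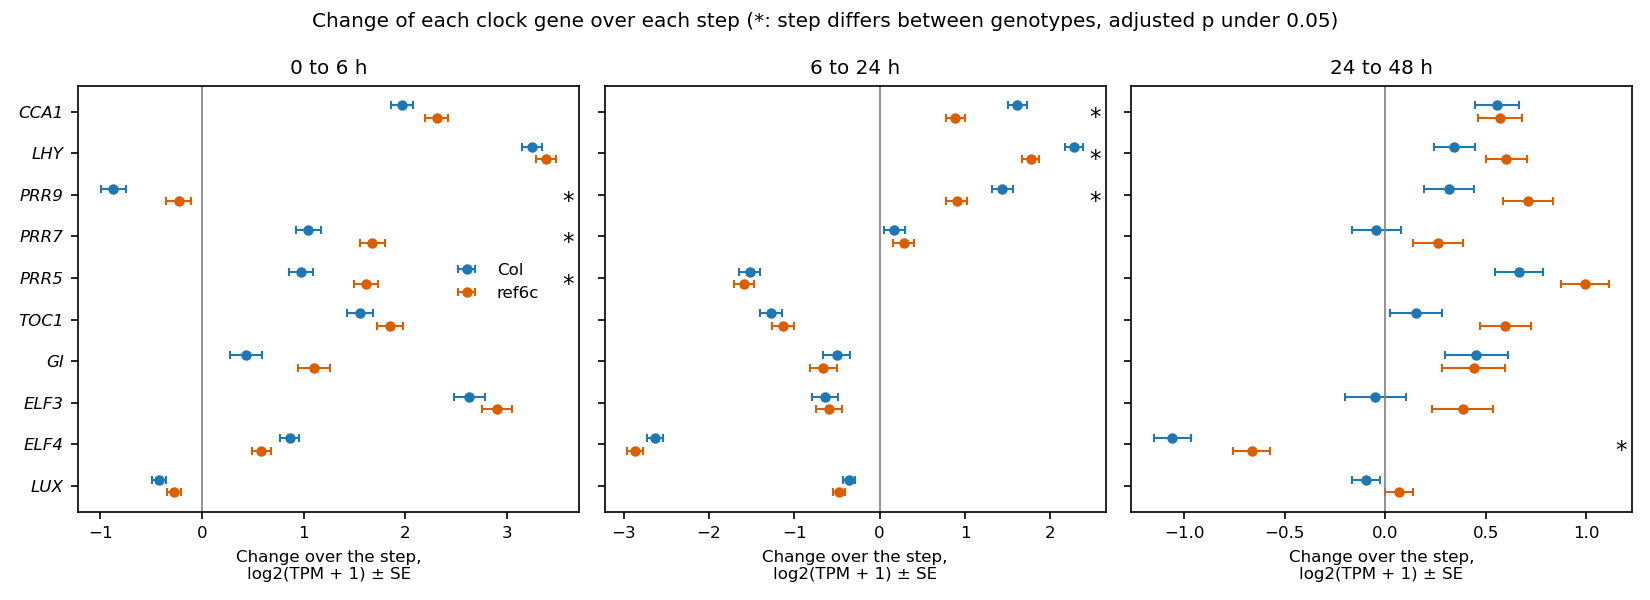
Change of each clock gene in log2(TPM + 1) ± SE (horizontal axes) over each step of imbibition, Col in blue and ref6c in orange; an asterisk marks a step that differed between the genotypes at an adjusted p under 0.05. The rise of CCA1 from 6 to 24 h was 1.61 in Col and 0.89 in ref6c.

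Whether a step differed between the genotypes was tested as an interaction. From 0 to 6 h, 3 of the 10 genes had a higher step value in ref6c. In TPM PRR5 (0.64 ± 0.17, adjusted p = 0.019) and PRR7 (0.63 ± 0.18, adjusted p = 0.026) rose more, and PRR9, which fell in Col (-0.87) and was not called in ref6c (-0.23), differed by 0.64 ± 0.17 (adjusted p = 0.022), against 5.15% of all genes higher and 2.89% lower. With median-of-ratios scaling 1 of the 3 was called, PRR7, and the share of all calls that were higher went from 64.0% to 46.8%. Without replicate 1 of ref6c at 0 h 6 of the 10 were called, all higher, against 15.8% of all genes higher and 3.88% lower. From 6 to 24 h, 3 of the 10 rose less in ref6c, CCA1 (-0.73 ± 0.16, adjusted p = 0.0019), LHY (-0.51 ± 0.14, adjusted p = 0.017) and PRR9 (-0.53 ± 0.17, adjusted p = 0.039), against 5.95% of all genes higher and 9.83% lower. CCA1 rose 3.51-fold in Col and 2.02-fold in ref6c over that step. Without replicate 2 of ref6c at 24 h 1 of the 3 was called, CCA1, against 5.27% of all genes higher and 7.60% lower. From 24 to 48 h 1 of the 10 was called, ELF4, which fell less in ref6c (0.39 ± 0.13, adjusted p = 0.033), against 5.78% of all genes higher and 16.2% lower, and 2 were called without that library, against 4.69% and 16.8%. The 6 to 24 h difference of CCA1 held under every alternative, and each of the other 6 was lost under at least 1.

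The order of the 8 groups differed between genes. CCA1 was lowest in dry ref6c seeds (0.227 ± 0.081 TPM) and highest in Col at 48 h (24.4 ± 2.86), and only the 6 h groups, and ref6c at 48 h with Col at 24 h, overlapped as neighbours in that order. LHY ran from dry seeds (0.143 ± 0.098 in ref6c) to Col at 48 h (66.2 ± 6.67), with overlap between the dry groups and between the 48 h groups. PRR7 was lowest in dry ref6c (5.50 ± 1.32) and highest in ref6c at 48 h (29.0 ± 1.60), and Col at 6, 24 and 48 h and ref6c at 6 h formed a run of overlapping neighbours. PRR9 was lowest in Col at 6 h (3.36 ± 0.368) and highest in ref6c at 48 h (16.7 ± 1.08). PRR5 was lowest in Col at 24 h (0.659 ± 0.038) and highest in ref6c at 6 h (5.78 ± 0.155). TOC1 was also highest in ref6c at 6 h (46.8 ± 3.82), overlapping with Col at 6 h, and lowest in dry ref6c (12.6 ± 3.80). GI ran from 4.44 ± 1.68 in dry ref6c to 10.4 ± 0.372 in ref6c at 6 h, and each group overlapped with the next. ELF3 ran from 5.01 ± 2.04 in dry ref6c to 42.7 ± 2.52 in Col at 6 h, overlapping with ref6c at 6 h. ELF4 ran from 22.1 ± 3.58 in Col at 48 h to 324 ± 4.08 in ref6c at 6 h, and only the 24 h groups overlapped as neighbours. LUX was the gene that was highest in dry seeds, 26.4 ± 1.47 in ref6c and 26.0 ± 1.99 in Col with overlap, and lowest in Col at 48 h (13.7 ± 0.416).

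Over the 8 group means of log2(TPM + 1), CCA1 and LHY had a Pearson r of 0.99, and PRR5 and TOC1 one of 0.91. CCA1 and LUX moved opposite ways (r = -0.97), as did PRR9 and ELF4 (r = -0.96). These values describe groups that share imbibition time and carry no test. Among 5962 genes with a symbol and a mean of at least 5 TPM, the gene most like each clock gene over these means was VAB2 for CCA1 (r = 0.9988), CAT8 for LHY (0.9989), ETFBETA for PRR9 (0.9712), TH1 for PRR7 (0.9953), KING1 for PRR5 (0.9854), CPR5 for TOC1 (0.9912), PHT4;3 for GI (0.9769), ABCF4 for ELF3 (0.9993), OBF5 for ELF4 (0.9913) and BT4 for LUX (0.994). The next in rank were GAUT14, RGP5, CPB, RTE1, OBE1, NAC017, ATG18H, HAC1, GEX1 and CBSX5, in the same order.

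A wider list of 40 clock genes, chosen from general knowledge by role, was followed in the same comparisons, and 37 of them could be tested. At 48 h 24 of the 37 were higher in ref6c and 6 lower, against 22.1% and 34.1% of all genes, with a median difference of 0.35. At 24 h 11 were higher and 4 lower, against 12.0% and 22.2% of all genes. At 6 h 7 were higher and 3 lower, against 5.89% and 10.1%, and only 3 to 8 were called in all without a library. At 0 h 2 were higher and 8 lower, against 2.07% and 10.6%, or 1 and 17 without replicate 1 of ref6c at 0 h. With median-of-ratios scaling the split at 0 h was 6 higher and 6 lower, so its direction rests on the scaling. Among all genes the share of calls at 0 h that were higher went from 16.3% to 55.9%. With only the groups compared 1 of the 37 was called at 0 h, as lower. The share of all genes called in that fit is not given here, so this count cannot be set against it. Without replicate 2 of ref6c at 24 h 8 were higher and 3 lower at that time. Without replicate 1 of ref6c at 0 h or replicate 2 of ref6c at 24 h, the percentages of all genes called are those given for the 10 genes.

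The REVEILLE genes encode MYB factors related to CCA1 and the LNK genes encode their co-activators. At 48 h 9 of the 12 listed were called higher and the other 3 were not called, against 22.1% of all genes higher and 34.1% lower. At 24 h 7 of 12 were higher, against 12.0% of all genes. That count was 4 of 12 without replicate 2 of ref6c or with only the groups compared, a fit whose all-gene share is not given here. LNK3 had 30.7 ± 1.69 TPM in Col and 61.1 ± 3.72 in ref6c at 48 h (0.97 ± 0.07, adjusted p = 2.8e-11). LNK4 had 55.7 ± 3.89 and 80.6 ± 3.14 TPM (0.53 ± 0.08, adjusted p = 5.9e-06), after being lower in dry ref6c seeds (-0.51 ± 0.08, adjusted p = 9.9e-05, and -0.51 without replicate 1 of ref6c). AT4G01280 had 10.6 ± 0.539 and 16.9 ± 1.37 TPM (0.62 ± 0.07, adjusted p = 7.6e-08).

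Of 5 tested relatives of the core genes, 2 were higher and 1 lower at 48 h, against 22.1% and 34.1% of all genes. PRR3, a pseudo-response regulator that acts with TOC1, had 8.27 ± 0.698 TPM in Col and 15.9 ± 0.386 in ref6c (0.87 ± 0.12, adjusted p = 1.9e-06). BOA, a close relative of LUX, had 21.0 ± 4.04 and 45.2 ± 1.55 TPM (1.08 ± 0.12, adjusted p = 5.7e-08), and was already higher at 24 h (0.69 ± 0.12, adjusted p = 8.8e-05, and 0.61 without replicate 2 of ref6c). ELF4-L2, a relative of ELF4, was lower, with 24.1 ± 2.12 and 13.2 ± 0.656 TPM (-0.81 ± 0.10, adjusted p = 1.4e-07). All 3 LOV F-box genes, whose proteins send TOC1 and PRR5 for degradation, were higher at 48 h, against 22.1% of all genes. In dry seeds all 3 were called lower, by 0.40 to 0.43 as reported, against 10.6% of all genes, and also without replicate 1 of ref6c. With median-of-ratios scaling 2 of the 3 were called lower, and with only the groups compared their adjusted p-values were 0.25 to 0.36. Each of these dry-seed calls was also lost without replicate 2 of ref6c (adjusted p from 0.083 to 0.26). FKF1 had between 0 and 7 reads in the Col libraries at 48 h and between 19 and 25 in ref6c (0.86 ± 0.12, adjusted p = 2.1e-06). LKP2 had 10.9 ± 1.38 and 14.7 ± 0.596 TPM (0.41 ± 0.11, adjusted p = 0.0029) and ZTL 21.3 ± 0.480 and 25.9 ± 0.495 TPM (0.27 ± 0.11, adjusted p = 0.031), the last a call lost on leaving out any of the 6 libraries.

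Among 12 other regulators, 7 were higher and 4 lower at 48 h, against 22.1% and 34.1% of all genes. CHE, a TCP factor that represses CCA1, was the largest fall of the wider list, with 10.9 ± 1.50 TPM in Col and 2.35 ± 0.597 in ref6c (-1.84 ± 0.14, adjusted p = 6.8e-11), while at 24 h its difference was 0.13 ± 0.14 (adjusted p = 0.50). COR27, a repressor of PRR5 and TOC1, had 0.895 ± 0.293 and 3.23 ± 0.326 TPM (1.17 ± 0.11, adjusted p = 4.7e-09). AT4G33980 had 1.25 ± 0.221 and 6.25 ± 0.743 TPM (1.69 ± 0.15, adjusted p = 1.7e-09). Of 5 tested output genes, 3 were higher and 1 lower at 48 h, against the same shares of all genes. GRP7, an RNA-binding protein under clock control, had 474 ± 48.5 and 790 ± 71.2 TPM (0.74 ± 0.10, adjusted p = 2.2e-06). CDF3, a DOF factor of the day-length pathway, had 8.26 ± 0.384 and 13.2 ± 0.133 TPM (0.61 ± 0.09, adjusted p = 2.6e-06). AT1G69570 had 3.10 ± 0.178 and 1.00 ± 0.062 TPM (-1.03 ± 0.11, adjusted p = 4.5e-08).

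**Figure D5:**
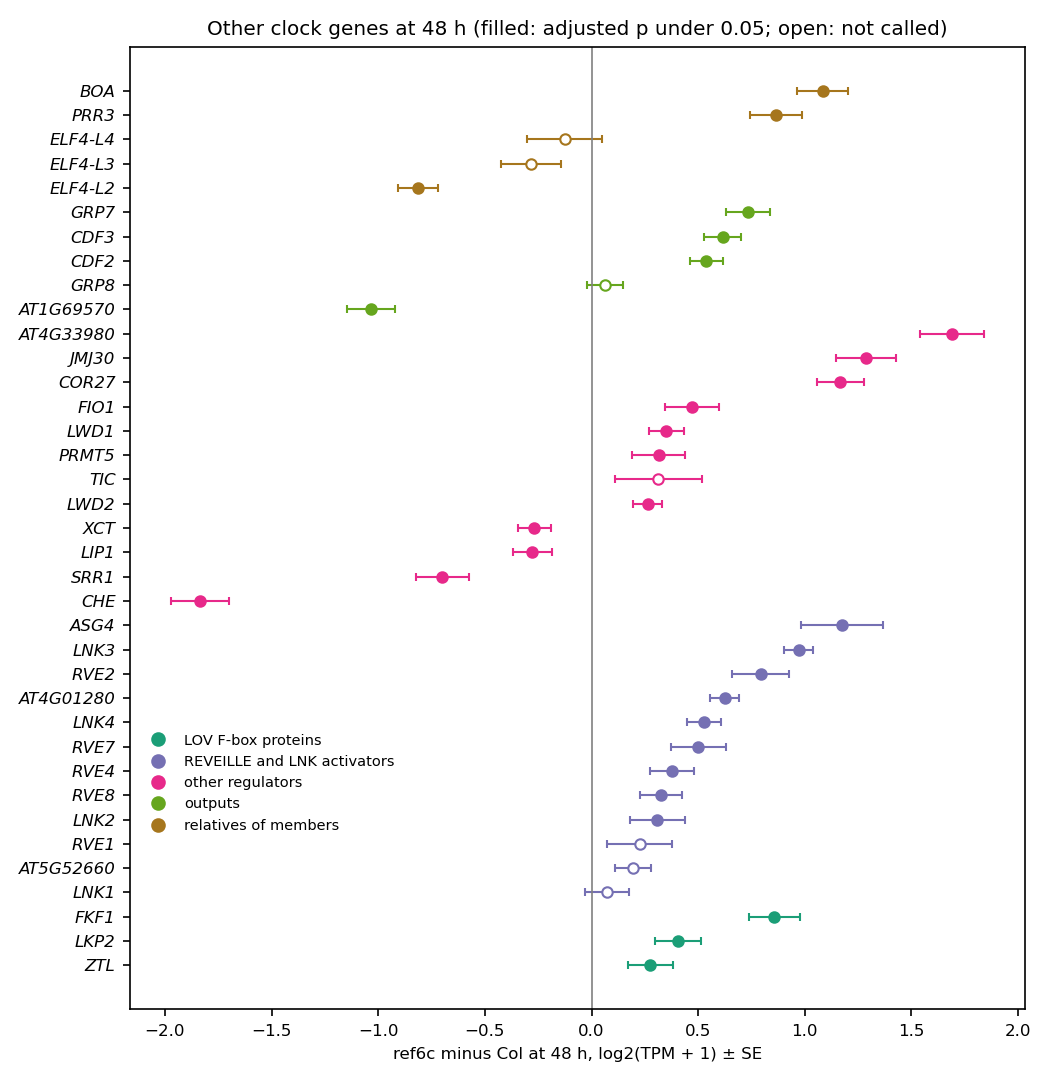
Difference ref6c minus Col at 48 h in log2(TPM + 1) ± SE (horizontal axis) for 37 other clock genes (vertical axis), coloured by role; filled points passed an adjusted p of 0.05 and open points did not. Of the 37, 24 are filled to the right of 0 and 6 to the left, against 22.1% and 34.1% of all genes. CHE lies at -1.84 and AT4G33980 at 1.69.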

How the data were processed

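RNA was sequenced from 24 seed libraries, 3 in each of 8 genotype-by-time groups. The authors deposited 1 table of TPM values for 23826 genes, in which each column totals 1000000. Tools listed in the submitters' processing notes, with no roles, are HISAT2 2.1.10, DESeq2 1.26.0 and fastp 0.20.1, and the build is TAIR10. The counting program and its strand setting are not given in the sources used here. Multiplying the deposited TPM by the TAIR10.1 gene span gave whole reads, within 0.01 reads, for 99.97% of 462321 values above 0. From these the depth was taken, and they entered a voom fit as an alternative.

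The filter asked for 1 TPM or more in 3 or more libraries and passed 18481 genes. On log2(TPM + 1), limma 3.58.1 in R 4.3.3 fitted 8 group means together, with an intensity trend, which left 16 residual degrees of freedom. Of 13 comparisons, 4 set ref6c against Col at a time, 6 followed a step within a genotype and 3 took the difference of a step between genotypes. Tests were two-sided, with Benjamini-Hochberg adjustment over all genes and calls at 0.05. The fit was tried on simulated data for the comparison of ref6c with Col at 24 h only, with log2 changes of at least 1 in either direction. No step within a genotype and no difference of a step was simulated. The members and lists were chosen with earlier results of these data known. All 10 members were named, and each role of the wider list gave the 3 genes with the smallest adjusted p at 48 h. Libraries of a group differed from each other beyond sampling noise, with a chi-square per gene of at least 2.132, so none was counted as a duplicate. Tables and plots were made in Python 3.11.15 with pandas 2.3.3, numpy 2.4.6 and matplotlib 3.10.9.

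Alternatives changed 1 choice at a time, except voom, which changed the values, their weights and the genes tested together. They were median-of-ratios scaling, voom on the recovered reads (18316 genes), a fit of only the groups compared, a fit without the trend, a replicate block, a 0.1 pseudocount, a 5 TPM filter, an unfiltered table, and the omission of each library in the comparison.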

Additional observations from a re-analysis of the deposited data

Results flagged for a closer look

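In 7 cases the change of a clock gene over a step differed between ref6c and Col by the interaction test in limma, given as ref6c minus Col on log2(TPM + 1). CCA1 over the 6 to 24 h step gave -0.7275 (adjusted p = 0.0019) and LHY over the same step -0.5083 (adjusted p = 0.017). PRR9 gave 0.6441 over the 0 to 6 h step (adjusted p = 0.022) and -0.5345 over the 6 to 24 h step (adjusted p = 0.039), so it fell less in ref6c at first and rose less afterwards. PRR7 gave 0.6318 (adjusted p = 0.026) and PRR5 0.639 (adjusted p = 0.019) over the 0 to 6 h step. ELF4 gave 0.3942 over the 24 to 48 h step (adjusted p = 0.033), where it fell less in ref6c. The CCA1 value held under every alternative and the other 6 were lost under at least 1.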

How the results depend on the processing

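Of 130 differences of the 10 genes 73 were called, and 46 of these kept their call and direction under every alternative. The shares of all genes called varied widely between comparisons. They ran from 5.15% higher and 2.89% lower for the difference of the 0 to 6 h step to 75.0% and 9.70% for that step in Col. The count of 73 thus does not describe the clock genes alone. Genes called at 0 h, 1 as reported, numbered 3 with a pseudocount of 0.1, 3 with median-of-ratios scaling, 2 with voom and 1 to 6 without a library. Those at 6 h, 2 as reported, numbered 4 with only the groups compared and 1 to 2 without a library, and those at 24 h, 4 as reported, 2 with only the groups compared and 2 to 4 without a library. The differences of the 0 to 6 h step, 3 as reported, numbered 1 with median-of-ratios scaling, 1 with only the groups compared and 0 to 6 without a library. Those of the 6 to 24 h step, 3 as reported, numbered 1 to 3 without a library, and those of the 24 to 48 h step, 1 as reported, 3 with only the groups compared, 0 with voom (ELF4 0.3878, adjusted p = 0.15) and 0 to 2 without a library. Other clock genes called at 0 h, 10 as reported, numbered 1 with only the groups compared and 4 to 18 without a library, and at 6 h, 10 as reported, 3 to 8 without a library. Calls among all genes moved with the setting too, so these counts do not describe the clock genes alone. With median-of-ratios scaling they went at 0 h from 382 higher and 1965 lower to 1972 and 1558. For the difference of the 0 to 6 h step they went from 952 and 535 to 732 and 832. All-gene shares without the libraries that stood apart are given above, and those with only the groups compared or with voom are not given here.

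Median-of-ratios scaling turned the 0 to 6 h step of Col for PRR7 (-0.6777), PRR5 (-0.3586), TOC1 (-0.2418), GI (-1.2472) and ELF4 (-1.0051), and that of ref6c for PRR7 (-0.1824), TOC1 (-0.1124), GI (-0.6927) and ELF4 (-1.4589). By its construction it removes the common rise of that step. Voom turned GI in Col (-0.0904) and ELF4 in ref6c (-0.0122) over that step. The other sign changes, 35 over 11 differences, were between values of which neither was called. With median-of-ratios scaling these were LHY (0.0258) and TOC1 (0.0825) at 0 h, ELF3 at 6 h (0.026, with voom 0.0123), PRR7 (0.0167) and ELF3 (0.0132) over the 24 to 48 h step of Col, and the step differences of LUX from 0 to 6 h (-0.0295) and CCA1 from 24 to 48 h (-0.0416). The PRR5 difference of the 6 to 24 h step became 0.1978 with a pseudocount of 0.1 and 0.2624 with voom. Without a library, ranges that crossed 0 were -0.0724 to 0.0405 for LHY, -0.331 to 0.0146 for TOC1 and -0.0287 to 0.0773 for LUX at 0 h, -0.0544 to 0.0379 for ELF3 at 6 h, -0.0489 to 0.0966 for GI at 48 h, -0.1446 to 0.0459 for PRR7 and -0.1056 to 0.0006 for ELF3 over the 24 to 48 h step of Col, -0.2705 to 0.0482 for the PRR5 difference of the 6 to 24 h step, and -0.0888 to 0.0804 for CCA1 and -0.1094 to 0.0361 for GI in the difference of the 24 to 48 h step. Except for the scaling, the cause was not tested.

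Deviations from the group means had a median correlation of 0.006 over 84 same-numbered pairs, pooled over all times and both genotypes. Between Col and ref6c libraries of the same number and time it ran from -0.115 to 0.394, both at 0 h. Whether the numbers pair libraries within a time is thus not settled. With the replicate block 1 call was lost, PRR7 from 6 to 24 h in ref6c (0.2811, adjusted p = 0.056). The REF6 difference at 0 h was not called with only the groups compared (-0.6803, adjusted p = 0.082). Depth limits LHY in dry seeds, with 4 to 14 reads per library, and FKF1 in Col at 48 h, with 0 to 7.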
